A study of Mus musculus with 4 samples.

Results

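Dendritic type cells without Cd207 were 639 of the 13877 cells kept from 4 single-cell libraries of sorted mouse back skin dermis. A cell was a member if H2-Aa, H2-Ab1, H2-Eb1 and Cd74 each had at least 3 unique molecular identifiers (UMIs, counted RNA molecules) and Cd207 had 0. It also needed at least 1 UMI of at least 2 of the leukocyte genes Ptprc, Cytip, Cd52, Srgn and Tyrobp, and at most 1 of the macrophage genes C1qa, C1qb, C1qc, Pf4 and F13a1 with 2 or more UMIs. The members were thus chosen by the measured UMIs of these 15 genes, which are described and not tested. The members are called Cd207-zero cells here, and 296 came from the 18-month and 84 from the 2-month library of 10x chemistry version 2, with 198 from the 12-month and 61 from the 2-month library of version 3.

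The study asked how the hair follicle mesenchyme, the connective tissue in and around the follicle, changes with age. The mice, on a C57BL/6J background, were α-SMACreERT2:RosaYFP for the 18-month and 2-month version 2 samples and α-SMACreERT2:RosaTDTomato for the 12-month and 2-month version 3 samples, so that reporter and chemistry cannot be told apart. The α-SMA (smooth muscle actin) promoter drives a Cre recombinase that 4-hydroxy-tamoxifen switches on, which marks smooth muscle actin positive cells and their progeny and is no leukocyte label. All mice received 4-hydroxy-tamoxifen on postnatal days 3 and 4, 2 mice were used for each sample, and there was 1 library per age and chemistry. Dispase-treated back skin was freed of epidermis, and 5000 reporter-positive and 5000 Cd26-positive cells, all also positive for Itga9 or Cd200, were sorted and mixed. The sort was aimed at mesenchymal cells, and the shares of leukocytes below are shares of what passed it, not of skin. The study's design text counts 2 and 12 months as young and 18 months as aged.

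Dendritic cells take up antigen, load its peptides onto MHC class II molecules and carry them to lymph nodes, where they prime T cells. The class II proteins H2-A and H2-E are assembled with the invariant chain Cd74, which keeps the groove closed until H2-DM exchanges its fragment for peptide, and H2-O restrains H2-DM. Skin holds Langerhans cells in the epidermis, marked by Cd207 (langerin), and several dermal types, of which conventional type 1 cells carry Xcr1 and Clec9a and type 2 cells carry Cd209a, Mgl2 and Sirpa. Cells that leave for the node switch on the chemokine receptor Ccr7 and the actin bundler Fscn1.

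The class II genes of the H2 family sit close together on mouse chromosome 17. They share promoter elements read with the help of the coactivator Ciita. Of them H2-Aa, H2-Ab1 and H2-Eb1 are in the rule, and the H2-DM genes are not. Promoter windows of 250 bases before to 50 after the annotated start were taken from RefSeq (build GRCm38.p6) for 5 of the 6 class II genes sought. They are shown because they let the reader see one of the shared elements, the Y box, searched on both strands as TGATTGG and printed in capitals within lower-case sequence.
H2-Aa promoter, chr17:34287774-34288073, minus strand: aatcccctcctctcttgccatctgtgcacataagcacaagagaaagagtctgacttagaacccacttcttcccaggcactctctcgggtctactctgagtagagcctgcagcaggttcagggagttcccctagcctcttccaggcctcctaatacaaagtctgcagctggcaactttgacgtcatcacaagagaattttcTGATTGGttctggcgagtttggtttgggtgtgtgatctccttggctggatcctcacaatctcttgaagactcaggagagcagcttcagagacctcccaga
H2-Eb1 promoter, chr17:34305617-34305916, plus strand: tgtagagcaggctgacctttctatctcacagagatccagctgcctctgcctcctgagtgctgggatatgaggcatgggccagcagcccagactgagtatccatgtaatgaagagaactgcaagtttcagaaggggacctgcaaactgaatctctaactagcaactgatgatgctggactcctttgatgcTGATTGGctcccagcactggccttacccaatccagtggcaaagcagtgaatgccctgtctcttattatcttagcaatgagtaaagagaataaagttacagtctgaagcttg
H2-DMb1 promoter, chr17:34152941-34153240, plus strand: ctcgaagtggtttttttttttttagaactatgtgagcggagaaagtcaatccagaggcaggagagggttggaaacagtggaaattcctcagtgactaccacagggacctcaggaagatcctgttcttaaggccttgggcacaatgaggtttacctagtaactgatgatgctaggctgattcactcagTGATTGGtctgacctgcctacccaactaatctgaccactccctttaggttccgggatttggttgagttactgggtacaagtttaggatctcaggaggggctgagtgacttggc
H2-DMb2 promoter, chr17:34144999-34145298, plus strand: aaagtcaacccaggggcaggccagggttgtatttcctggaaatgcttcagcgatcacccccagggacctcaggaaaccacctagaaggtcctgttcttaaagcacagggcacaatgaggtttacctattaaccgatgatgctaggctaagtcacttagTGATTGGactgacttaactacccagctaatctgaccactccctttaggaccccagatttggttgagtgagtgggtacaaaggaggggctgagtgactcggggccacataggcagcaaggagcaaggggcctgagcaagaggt
The letters began at -50 from the start in H2-Aa, -61 in H2-Eb1, -63 in H2-DMb1 and -92 in H2-DMb2. They were absent from both listed H2-DMa windows. Of all 32851 promoter windows of this length, 2568 (7.82%) held the same letters on either strand, and a match describes the sequence only.

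The 4 libraries held 1906 to 7023 barcodes and 17831300 to 77032628 UMIs, and 1729 to 5555 cells per library were kept, each with 500 or more genes detected, 1000 or more UMIs and a mitochondrial share below 10%. Version 2 cells held a median of 6674 UMIs in the 18-month and 6322 in the 2-month library, and version 3 cells 11923 in the 12-month and 12057 in the 2-month library. Cd207-zero cells had median UMIs of 7861 (18 months) and 11286 (2 months) in version 2. In version 3 their medians were 9613.5 (12 months) and 11566 (2 months). No cell barcode of a Cd207-zero cell was shared between libraries. Among all kept cells, 11 barcodes were shared between the 12-month and the 2-month version 3 libraries and 7 between the 18-month and the 2-month version 2 libraries. Levels are CPM, a gene's UMIs scaled to a fixed total of the UMIs summed over a group's cells in a library. Where 4 values stand together, they belong to the 18-month and 2-month version 2 libraries and then the 12-month and 2-month version 3 libraries.

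Cd207-zero cells made up a larger share of the older library in each chemistry. In version 2 they were 11.8% of kept cells at 18 months (exact Clopper-Pearson interval 10.6 to 13.1%) and 4.86% at 2 months (3.89 to 5.98%). In version 3 they were 4.84% at 12 months (4.21 to 5.55%) and 1.10% at 2 months (0.841 to 1.41%). The ratio of shares was 2.43 (95% interval 1.90 to 3.14) for 18 over 2 months and 4.41 (3.30 to 5.98) for 12 over 2 months. These intervals cover counting error only, and 1 library per age and chemistry gives no spread between mice and no test. The 2-month libraries themselves differed, at 4.86% in version 2 and 1.10% in version 3. Since the sort fixed 5000 cells per gate, a larger share of Cd207-zero cells and fewer mesenchymal cells passing the filters cannot be told apart.

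**Figure D1:**
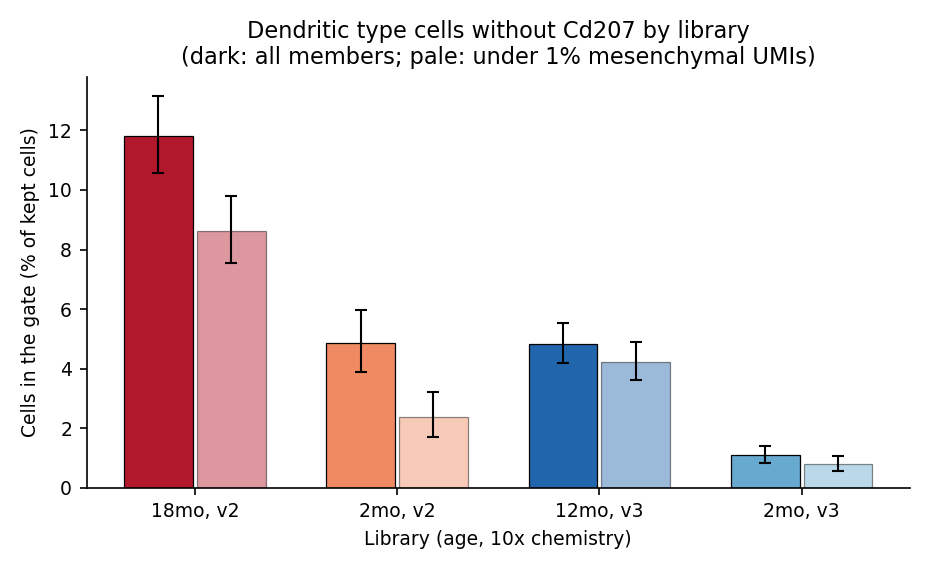
Share of kept cells (%, y axis) that were Cd207-zero cells in each library (x axis: age and chemistry), for all members (dark bars) and for members with under 1% of their UMIs in 24 mesenchymal genes (pale bars); whiskers are exact 95% counting intervals. The 18-month bar, at 11.8%, stands above the 2-month bar of its chemistry, at 4.86%, and the 12-month bar, at 4.84%, above its own, at 1.10%.

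Among class II positive cells the exact intervals of the Cd207-zero share overlapped between ages in each chemistry. Cd207-zero cells were 87.8% (18 months) and 84.8% (2 months) of the cells that met the class II, leukocyte and macrophage limits whatever their Cd207 count in version 2, and 64.7% (12 months) and 67.8% (2 months) in version 3. The ratios were 1.04 (0.919 to 1.20) for 18 over 2 months and 0.955 (0.765 to 1.23) for 12 over 2 months. These ranges divide opposite Clopper-Pearson limits of the 2 shares and are wider than 95% intervals of a ratio. Both included 1, which does not show that the shares were equal. Cd207 detection depends on depth: 10, 9, 9 and 3 of the 41, 15, 108 and 29 Cd207-detected cells rested on a single Cd207 UMI, and their median Cd207 count was 4, 1, 12 and 17 UMIs. With every cell thinned to 3000 UMIs, the share without Cd207 was 91.3% (18 months) and 95.7% (2 months) in version 2, and 68.5% (12 months) and 70.8% (2 months) in version 3.

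The class II thresholds lay far below the levels the members had. Median UMIs per Cd207-zero cell were 116, 105.5, 121 and 108 for H2-Aa, and 275, 241, 376.5 and 345 for Cd74. H2-Ab1 had medians of 90, 83, 106 and 126 UMIs, and H2-Eb1 of 72.5, 68, 120 and 112. Just 1 member, at 18 months, had a class II gene at exactly 3 UMIs, and 2 cells of the 2-month version 3 library were left out with a lowest class II gene at 2 UMIs. The limit on macrophage genes mattered more, since 64, 17, 253 and 223 cells that met the class II threshold were left out with 2 or more of those 5 genes.

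Type 2 dendritic markers that the rule did not use were found in most of the members. Mgl2, a galactose-binding C-type lectin, was detected in 90.9, 94, 99 and 91.8% of Cd207-zero cells, against 1.54, 1.10, 3.87 and 5.02% of cells of the same libraries with at least 5 of 9 fibroblast genes and none of the 5 leukocyte genes, which should lack it. These fibroblast cells had median depths of 6679, 6250.5, 12427 and 12447 UMIs, below the Cd207-zero cells in version 2 and above them in version 3. Asking for none of the 5 leukocyte genes also leaves out fibroblast cells that carry some leukocyte RNA. The fibroblast rates here and below can therefore understate the background. Cd209a, the mouse relative of DC-SIGN, was detected in 81.1, 86.9, 78.3 and 77% of Cd207-zero cells and 1.00, 0.366, 0.599 and 0.525% of fibroblast cells. Both lectins were found in the same cell in 79.1, 84.5, 78.3 and 75.4% of Cd207-zero cells, and neither in 7.09, 3.57, 1.01 and 6.56%. Cd207-detected cells held both in 68.3, 80.0, 62 and 72.4%, and macrophage type cells in 28.2, 26.3, 31 and 30.7%, so the pair marks class II positive cells of both kinds and not the Cd207-zero cells alone. Mgl2 by itself was detected in 76.5, 63.2, 90.1 and 97% of macrophage type cells (at least 2 of the 5 macrophage genes with 2 or more UMIs), whose median depths were 7825, 7551, 6337.5 and 8629 UMIs.

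General dendritic genes were present at lower rates. Itgax (CD11c) was detected in 29.1, 36.9, 33.3 and 32.8% of Cd207-zero cells and in at most 0.0772% of fibroblast cells. The growth factor receptor Flt3 was detected in 17.9, 10.7, 25.8 and 23%, and the transcription factor Zbtb46 in 9.12, 4.76, 28.3 and 13.1%, against at most 0.122% and 1.03% of fibroblast cells. The type 1 list of 13 genes, which holds the more widely expressed Irf8 and Ppt1, summed to 297, 323, 323 and 395 CPM in Cd207-zero cells, 603, 172, 757 and 307 CPM in Cd207-detected cells and 261, 269, 401 and 487 CPM in macrophage type cells, and at least 2 of the 13 were found in 41.9, 70.2, 50 and 68.9% of Cd207-zero cells. Of 6 of these genes chosen after the data were seen (Xcr1, Clec9a, Gcsam, Snx22, Itgae and Tlr3), at least 2 were found in 0.676, 1.19, 0 and 1.64% of Cd207-zero cells, against 9.76, 0, 13.9 and 3.45% of Cd207-detected cells. Xcr1, the receptor for Xcl1, was detected in 0.338, 1.19, 2.02 and 3.28% of Cd207-zero cells.

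Defining genes of lymphocytes had no UMI in the members, while parts of other leukocyte lists were read. Cd3e (T cells), Cd79a (B cells) and Nkg7 (natural killer cells) had no UMI in any Cd207-zero cell, which allows a share of cells with a UMI of up to 1.01, 3.57, 1.52 and 4.92% and sets no limit on cells expressing the gene. The T cell list of 6 genes summed to 3.10, 2.93, 7.03 and 3.55 CPM, with 3 to 5 of the 6 at 0, and the mast cell list of 6 genes to 1.55, 0, 2.34 and 0 CPM. The 6 natural killer and innate lymphoid genes summed to 94.7, 81.2, 752 and 355 CPM, with 3 or 4 of the 6 at 0, mostly as the interleukin 7 receptor gene Il7r (52.4, 47, 724 and 347 CPM) and the lectin Klrd1 (42.3, 34.2, 27.2 and 8.28 CPM). The 7 B cell genes summed to 246, 577, 86.2 and 193 CPM, all of it Ebf1, which stood at 615, 763, 383 and 471 CPM in fibroblast cells. The 10 monocyte genes summed to 329, 754, 205 and 517 CPM, with Vcan, also a papilla gene, among them, and the 6 plasmacytoid genes to 213, 221, 236 and 236 CPM. Lyve1, a hyaluronan receptor of resident macrophages, had no UMI in Cd207-zero cells, against 13.7, 0, 65.1 and 571 CPM in macrophage type cells. The mannose receptor Mrc1 and the growth factor receptor Csf1r, both widely used macrophage genes, were detected in many Cd207-zero cells, at lower levels than in macrophage type cells. Mrc1 was detected in 48.6, 64.3, 76.3 and 80.3% of Cd207-zero cells, against 2.16, 0.244, 4.52 and 7.78% of fibroblast cells, and stood at 100.1, 101, 227 and 221 CPM in Cd207-zero cells and 561, 377, 2171 and 2519.5 CPM in macrophage type cells. Csf1r was detected in 22.6, 29.8, 49.5 and 54.1% of Cd207-zero cells and 6.33, 0.732, 5.17 and 4.63% of fibroblast cells. The 18 macrophage genes in the files, 5 of them in the rule, summed to 1041, 669, 1448 and 1352 CPM in Cd207-zero cells and 15576, 12632, 30217 and 36389.7 CPM in macrophage type cells. The 7 markers named for these cells (H2-Aa, H2-Ab1, H2-Eb1, Cd74, Cytip, Cd52 and Ccr7) were all detected in every library, 6 of them by the rule itself.

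**Figure D2:**
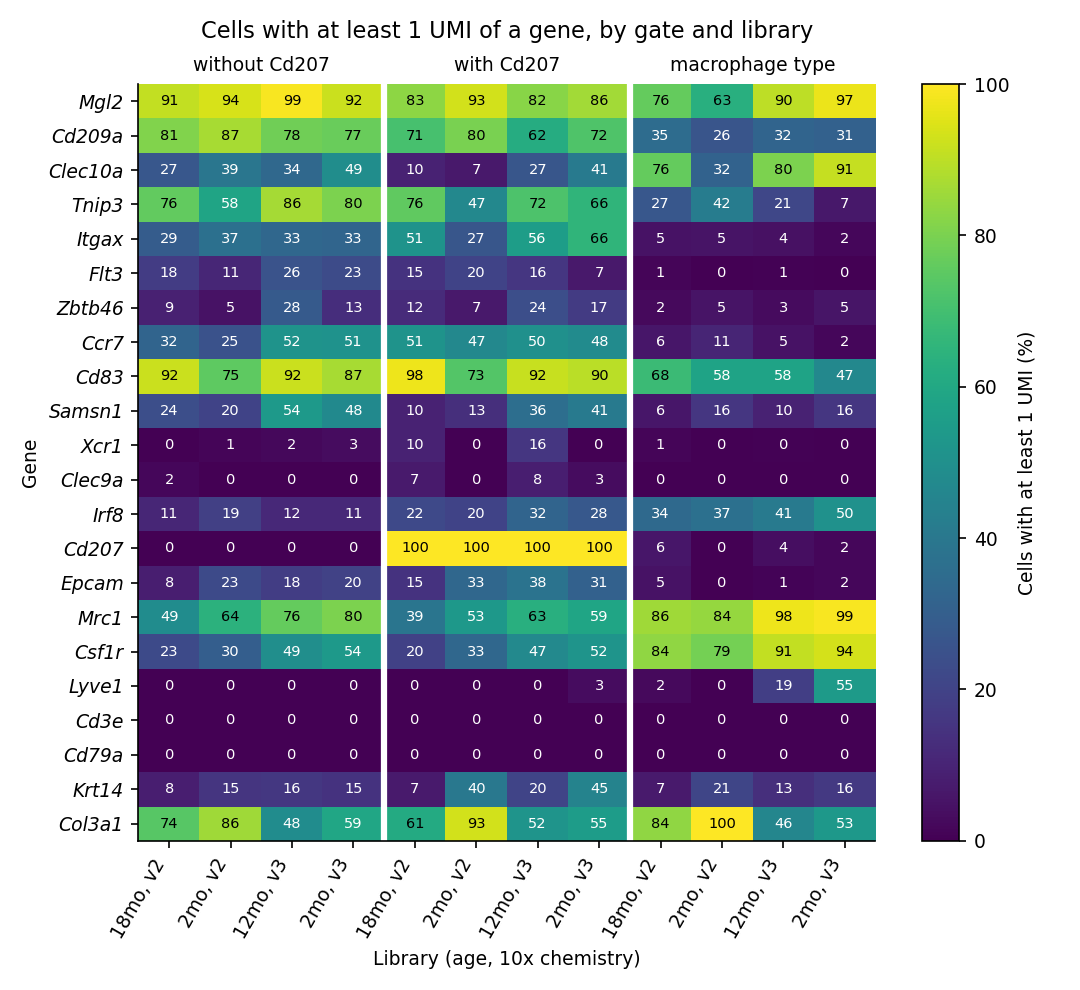
Percentage of cells (number and colour) with at least 1 UMI of each gene (rows) in Cd207-zero cells, Cd207-detected cells and macrophage type cells, with 4 libraries each (columns). Mgl2 and Cd209a are high in the Cd207-zero cells of all 4 libraries, Xcr1, Clec9a, Lyve1, Cd3e and Cd79a are near or at 0, and Ccr7 marks a part of the cells.

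A part of the members carried RNA of mesenchymal genes. Of 24 genes of the fibroblast, sheath muscle and papilla lists, at least 1% of a cell's UMIs came from these genes in 80 of the 18-month (27.0%, 22.1 to 32.5%) and 43 of the 2-month cells (51.2%, 40.0 to 62.3%) of version 2. In version 3 it was 25 of the 12-month (12.6%, 8.34 to 18.1%) and 17 of the 2-month cells (27.9%, 17.1 to 40.8%). The older library had the lower percentage in both chemistries. These cells were also the larger ones, with median UMIs of 12808.5, 13849, 19895 and 24814, against 6760.5, 8376, 9316 and 9768 for the other Cd207-zero cells. Each comparison below is given with and without them, a choice made after the data were seen. Without them Cd207-zero cells were 8.62% (18 months) and 2.37% (2 months) of kept cells in version 2 (ratio 3.63), and 4.23% (12 months) and 0.792% (2 months) in version 3 (ratio 5.34). How mesenchymal RNA came to be counted in these cells was not tested.

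**Figure D3:**
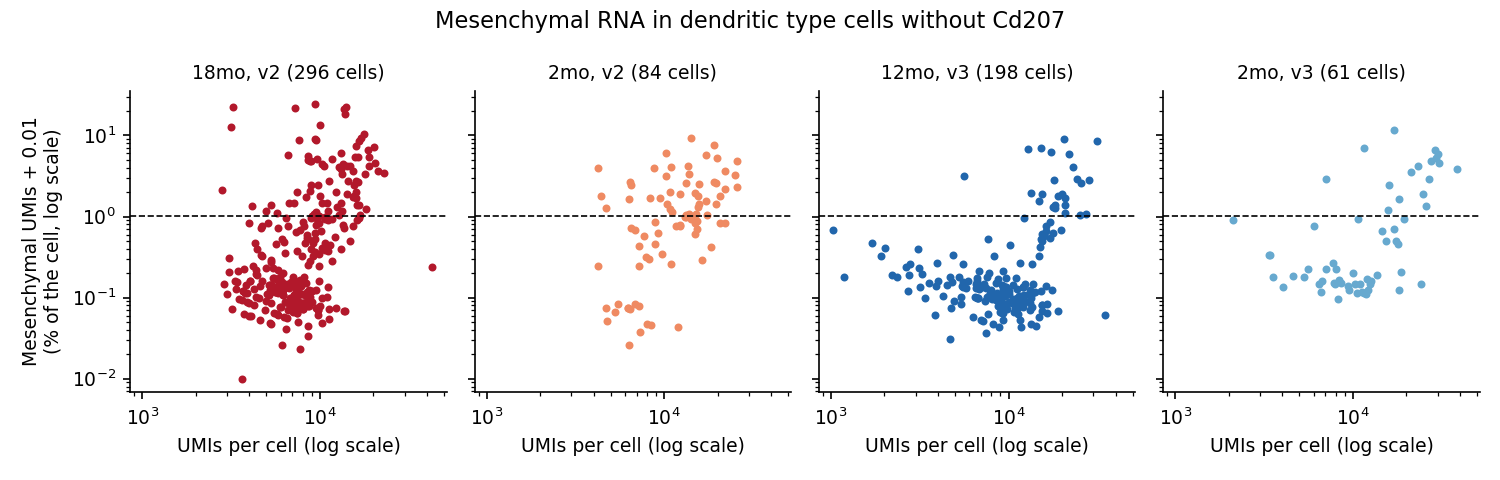
Share of each Cd207-zero cell's UMIs that came from 24 mesenchymal genes (y axis, %, with 0.01 added, log scale) against its total UMIs (x axis, log scale), 1 point per cell and 1 panel per library; the dashed line marks 1%. The cells above the line lie mostly at the right of each panel, and number 80, 43, 25 and 17.

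The genes of the sort were read in part of the members. eYFP, the added reporter entry, was detected in 59.8, 66.7, 61.6 and 72.1% of Cd207-zero cells and in 72.4, 69, 79.6 and 85.5% of fibroblast cells, in version 3 as well, although those samples are labelled TdTomato. Its level was 1245, 723, 302 and 559.8 CPM in Cd207-zero cells and 2948, 1636, 1708 and 1777 CPM in fibroblast cells. A single UMI counted as detection, here and for the sort criteria below. Counts per cell were uneven: many members held at most 1 eYFP UMI, and an 18-month cell with 4.14% mesenchymal UMIs held 202. The high counts lay mostly in cells at 1% mesenchymal UMIs or more. Dpp4, which encodes Cd26, was detected in 16.2, 28.6, 14.6 and 24.6%, Cd200 in 34.8, 57.1, 23.7 and 32.8% and Itga9 in 9.12, 33.3, 6.06 and 9.84% of Cd207-zero cells. RNA of eYFP or Dpp4 together with Cd200 or Itga9, read here as the sort criteria, was found in 30.7, 64.3, 19.7 and 32.8% of Cd207-zero cells. Among those under 1% mesenchymal UMIs it was found in 17.6, 39, 12.1 and 15.9%. Since the version 3 samples are labelled TdTomato, eYFP need not be the reporter they were sorted by, and their values need not describe their sort. A sorted protein can be present without a counted RNA, so how the other cells came through the sort was not tested.

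The Cd207-zero cells were first compared with the 193 Cd207-detected cells, the Langerhans type, which the same rule defines apart from Cd207. UMIs were summed per library and group and tested with edgeR's quasi-likelihood F-test with library as a block (two-sided, 3 residual degrees of freedom), and called at a Benjamini-Hochberg adjusted p under 0.05 over all genes tested. The groups differ by a measured gene, so genes that vary together with Cd207 were bound to differ. Of 8350 genes 89 (1.07%) were called, 19 higher (0.228%) and 70 lower (0.838%) in Cd207-zero cells. The p-values of the comparisons between cell groups measure how the group difference varied between these 4 libraries, with variation pooled over genes. The labels do not resolve the libraries into single mice.

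Epithelial and Langerhans genes were among those that fell. Of 7 tested Langerhans list genes 5 fell in Cd207-zero cells, with a list median of -1.92 on the log2 scale against 0.00 for all genes. Epcam, an epithelial adhesion molecule, was at 16.3, 29.3, 55.8 and 29.6 CPM in Cd207-zero cells and 54.1, 125, 154 and 155 CPM in Cd207-detected cells, lower in each of the 4 libraries (log2 fold change -1.96 ± 0.21 SE, edgeR adjusted p = 0.000756). Ltc4s (leukotriene C4 synthase), H2-M2 (an MHC class Ib gene) and Mfge8 (milk fat globule protein) were among the others. H2-M2 stood at 34.2, 16.6, 81.5 and 13 CPM in Cd207-zero cells and 86.5, 47.9, 238 and 129 CPM in Cd207-detected cells, lower by more than 2-fold in every library.

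Of 11 tested keratinocyte genes 4 fell in Cd207-zero cells, Krt5, Krt14, Krt15 and Sfn, and the list median was -3.16. The basal keratin gene Krt14 had 16.7, 61.6, 17.3 and 11.8 CPM in Cd207-zero cells and 251, 4799, 939.5 and 1635 CPM in Cd207-detected cells (-5.82 ± 0.37, edgeR adjusted p = 9.58e-06). The whole keratinocyte list of 11 genes summed to 1506, 986, 231 and 327 CPM in Cd207-zero cells and 1346, 13673, 2200.1 and 17432 CPM in Cd207-detected cells, lower in Cd207-zero cells in 3 of 4 libraries but not at 18 months. Among the 12 most strongly lower genes, Krt15, Krt5, Krt14, Col17a1 (a hemidesmosome collagen), Fgfbp1, Fxyd3, Ly6d, Stfa3 and Serpinb2 are known from keratinocytes, and the others were Fcgbp, Plek2 and Ckmt1. The part of keratinocyte RNA in the differences between the groups was not tested.

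A pair of type 1 dendritic genes fell as well. Irf8, the transcription factor that type 1 cells need, had 31.4, 18.6, 32.8 and 20.1 CPM in Cd207-zero cells and 129.8, 19.2, 194 and 65.7 CPM in Cd207-detected cells (-2.08 ± 0.28, edgeR adjusted p = 0.0033). The adhesion gene Cadm1 fell too, and the other 7 tested genes of the list were not called. Type 1 dermal dendritic cells of mice are known to carry Cd207, so a Cd207 gate need not hold Langerhans cells alone. Xcr1 had 8, 0, 39 and 0 UMIs in Cd207-detected cells, where the 18-month and 12-month libraries held all of them. The interleukin 1 decoy receptor Il1r2, the interleukin 1 antagonist Il1rn and the chemokine Cxcl16 were lower as well, Il1r2 at 250.3, 158, 349.6 and 249.7 CPM in Cd207-zero cells against 503, 273, 545 and 468 CPM in Cd207-detected cells.

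The genes that were higher in Cd207-zero cells were fewer. Cd7, an immunoglobulin family surface protein best known from T cells, had 62.1, 47, 124 and 123 CPM in Cd207-zero cells and 2.70, 0, 4.21 and 1.93 CPM in Cd207-detected cells. It was higher in Cd207-zero cells in 4 of 4 libraries, and the log2 fold change was 5.01 ± 0.33 (edgeR adjusted p = 9.58e-06). Rbp4, which carries retinol, had 41.1, 14.7, 112 and 72.2 CPM in Cd207-zero cells and 2.70, 4.79, 8.41 and 0 CPM in Cd207-detected cells (3.90 ± 0.41, edgeR adjusted p = 0.000756). Clec10a, the lectin next to Mgl2 in its family, was the single type 2 gene called of 11 tested, with 62.9, 68.5, 67.5 and 89.9 CPM in Cd207-zero cells and 10.8, 4.79, 31.6 and 36.7 CPM in Cd207-detected cells. Mgl2 (0.25 ± 0.12) and Cd209a (0.59 ± 0.14) were not called, with edgeR adjusted p of 0.545 and 0.0847.

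The chemokine Ccl6, the adaptor Samsn1, the amino acid oxidase Il4i1, the protease inhibitor Serpinb1a, Eno3, Dusp14, Adam23, Foxn2 and the lipocalin Apod completed the 12 most strongly higher genes. Samsn1 had 96.2, 38.1, 435 and 257 CPM in Cd207-zero cells and 37.9, 9.58, 96.1 and 59.9 CPM in Cd207-detected cells, higher in 4 of 4 libraries. Ccr7 did not separate the groups, with 194, 135, 991 and 446 CPM in Cd207-zero cells and 338, 91, 514 and 526 CPM in Cd207-detected cells (-0.02 ± 0.27). Nor was any of 12 MHC class I or 18 NF-kB genes called, and of 12 class II processing genes Cst3 alone fell. Without the cells at 1% mesenchymal UMIs or more, 76 of 5250 genes (1.45%) were called, 26 higher (0.495%) and 50 lower (0.952%), and 58 of the 89 were among them. Leaving out 1 library gave 9 to 32 higher and 24 to 96 lower calls, with 10 higher and 24 lower without the 2-month version 2 library, 9 and 39 without the 12-month, 10 and 33 without the 2-month version 3 and 32 and 96 without the 18-month library.

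Against the 1226 macrophage type cells the Cd207-zero cells differed far more widely. Of 10356 genes 1538 (14.9%) were called by the same test, 821 higher (7.93%) and 717 lower (6.92%) in Cd207-zero cells. The macrophage gate does not ask for class II genes and asks for complement and Pf4 genes, so genes that travel with either set were bound to differ. The counts depended on the 12-month library: without it 250 genes were higher and 217 lower, and 463 of the 1538 calls remained. Without the 2-month version 3 library there were 584 higher and 399 lower. Without the cells at 1% mesenchymal UMIs or more, 3 libraries could be fitted, 1998 of 9796 genes (20.4%) were called and 1403 of the 1538 were among them.

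Class II presentation genes outside the rule were mostly higher in Cd207-zero cells, but they travel with the class II genes that the gate asks for. Of the 85, 19, 484 and 638 macrophage type cells, 64, 17, 253 and 223 met the class II threshold that all members met. The rise is therefore described and is no separate support for the gate. Of 14 tested genes 8 rose and 2 fell, with a list median of 1.09 on the log2 scale. H2-DMa, a subunit of the peptide exchanger, had 1001, 927, 700.2 and 515 CPM in Cd207-zero cells and 472, 452, 225 and 119 CPM in macrophage type cells (1.77 ± 0.19, edgeR adjusted p = 0.00018). H2-Oa, whose product restrains H2-DM and which is known from B cells and dendritic cells, had 58.2, 40.1, 24.8 and 26 CPM in Cd207-zero cells and 8.21, 0, 0 and 0.157 CPM in macrophage type cells (5.45 ± 0.62, edgeR adjusted p = 0.000259). Both genes were higher in Cd207-zero cells in 4 of 4 libraries.

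H2-DMb1, H2-DMb2, H2-Ob, the thiol reductase Ifi30, the protease inhibitor Cst3 and the coactivator Ciita also rose. Ciita stayed low in absolute terms, at 6.21, 8.80, 13.1 and 36.7 CPM in Cd207-zero cells and 2.74, 5.72, 4.76 and 5.32 CPM in macrophage type cells (2.28 ± 0.39, edgeR adjusted p = 0.00249). H2-DMb1 and H2-DMb2, whose promoters carry the Y box letters printed above, had log2 fold changes of 1.77 ± 0.27 and 3.05 ± 0.53, and H2-DMa, whose windows do not, had 1.77 ± 0.19. The lysosomal protease Lgmn and the ubiquitin ligase March1, which removes class II from the surface, were the genes that fell.

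Dendritic identity genes rose together. Of 9 tested general dendritic genes 6 were higher (Flt3, Itgax, Id2, Zbtb46, Bcl11a and Dpp4) and none lower, with a median of 1.51. Of these, Dpp4 encodes Cd26, a protein of the sort, so the cells of both groups had been chosen in part by it. Flt3 had 23.7, 11.7, 34.2 and 21.3 CPM in Cd207-zero cells and 2.74, 0, 0.794 and 0.313 CPM in macrophage type cells (5.40 ± 0.46, edgeR adjusted p = 4.8e-05). Of 11 type 2 genes, Cd209a, Irf4, Tnip3, Mgl2 and Tmem176a rose, while Clec10a and Sirpa fell. Clec10a had 62.9, 68.5, 67.5 and 89.9 CPM in Cd207-zero cells and 393, 85.7, 621 and 792 CPM in macrophage type cells, so a gene listed as a dendritic marker was the higher one in macrophage type cells (-2.25 ± 0.35, edgeR adjusted p = 0.00155).

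Genes of T cell contact and of migration were higher too. Of 11 costimulation genes 7 rose, among them Cd80, Cd86 and Cd83, and the inhibitory ligands Cd274 and Pdcd1lg2. Lgals9 fell. Cd274 had 54.3, 13.7, 140.1 and 76.9 CPM in Cd207-zero cells and 9.58, 11.4, 16.4 and 15.2 CPM in macrophage type cells (2.89 ± 0.29, edgeR adjusted p = 0.000128). Of 19 migratory dendritic genes 11 rose and Anxa3 fell, with a median of 1.38. Ccr7 stood at 194, 135, 991 and 446 CPM in Cd207-zero cells against 27.4, 51.4, 15.1 and 26.8 CPM in macrophage type cells (4.36 ± 0.58, edgeR adjusted p = 0.000643). Of 18 NF-kB genes 9 rose and none fell, among them the survival genes Bcl2a1b and Bcl2a1d and the subunit Rel. Bcl2a1b and Bcl2a1d are near-identical copies, as Mgl2 and Clec10a, Ctla2a and its neighbour, and the Cd209 genes are close relatives, and how reads were shared among such copies is not given in the sources used here.

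Cytokine and chemokine genes divided the groups. Il1b, which encodes interleukin 1 beta, had 3754, 1425, 3861 and 2984 CPM in Cd207-zero cells and 556, 640.2, 655 and 269.8 CPM in macrophage type cells (2.82 ± 0.31, edgeR adjusted p = 0.000227). Of 19 chemokine ligands Ccl22 and Cxcl16 rose, and Ccl8, Ccl12, Ccl24, Ccl6, Ccl7 and Ccl2 fell. Ccl22, which attracts regulatory and type 2 helper T cells through Ccr4, had 63.3, 70.4, 98.9 and 10.7 CPM in Cd207-zero cells and 6.84, 0, 4.23 and 1.25 CPM in macrophage type cells. Ccl8 had the opposite pattern, with 38, 7.83, 30.0 and 48.5 CPM in Cd207-zero cells and 9712, 2555, 12242 and 11652 CPM in macrophage type cells (-7.91 ± 0.19, edgeR adjusted p = 1.86e-09).

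Macrophage genes fell: of 13 tested list genes outside the rules 12 were lower and none higher, with a median of -3.02. Folr2, the folate receptor of resident macrophages, had 1.16, 0.978, 1.41 and 2.37 CPM in Cd207-zero cells and 212, 62.9, 445 and 936 CPM in macrophage type cells (-7.64 ± 0.30, edgeR adjusted p = 1.47e-07). Scavenger and Fc receptors, lysosomal proteases and interferon-stimulated genes were on the same side. Of 18 pattern receptor genes 9 fell (Fcgr1, Mrc1 and Tlr7 among them) and Nlrp3 rose, of 15 lysosomal genes 7 fell and Cst3 rose, and of 19 interferon-stimulated genes 5 fell and none rose. The median of all genes tested was -0.02.

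Besides H2-Oa and Flt3, the 12 genes with the largest rise were Calcb, Siglecg, Sept3, Cd7, Adam23, Gpr171, Hepacam2, Grap2, P2ry10 and Klra17. Siglecg, a sialic acid receptor known as a brake on B cells, had 31, 11.7, 139 and 89.9 CPM in Cd207-zero cells and 1.37, 0, 1.59 and 1.41 CPM in macrophage type cells (6.32 ± 0.32, edgeR adjusted p = 7.61e-07). P2ry10, a receptor for lysophospholipids, had 56.3, 43, 102 and 108 CPM in Cd207-zero cells and 1.37, 17.1, 4.23 and 2.19 CPM in macrophage type cells. The 12 with the largest fall were Ccl8, Ccl12, Folr2, Cbr2, Stab1, C5ar1, Ms4a7, Ms4a14, Cd209f, Cd209g, Cd79b and Pigz. Cd209f and Cd209g lie in the same lectin family as Cd209a and moved the other way, Cd209f at 1.16, 0, 0.469 and 8.28 CPM in Cd207-zero cells and 172, 34.3, 512 and 956 CPM in macrophage type cells. Ms4a14, Cd79b and Pigz had no UMI in Cd207-zero cells, so their fitted folds are no measured size.

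Ccr7 was detected in a part of the members. At least 1 Ccr7 UMI was found in 32.1, 25, 51.5 and 50.8% of Cd207-zero cells, against 0.927, 0.244, 1.09 and 0.492% of fibroblast cells. After thinning to 3000 UMIs per cell it was 24, 14.6, 42.6 and 32.4%, so the share depended on depth. The 95, 21, 102 and 31 Ccr7-detected cells were compared with the 201, 63, 96 and 30 Ccr7-zero cells within libraries by the same blocked edgeR test, a comparison added after the data were seen. Median UMIs were 7978, 11873, 11497 and 13700 in Ccr7-detected cells and 7679, 11002, 7899 and 10802.5 in Ccr7-zero cells, so the Ccr7-detected cells were the deeper ones in all 4 libraries. The groups differ by the detection of a measured gene, so genes that vary together with Ccr7 were bound to differ. Ccr7-zero cells can include cells whose Ccr7 RNA was not counted, so the split does not show separate kinds of cell. Of 7828 genes 153 (1.95%) were called, 118 higher (1.51%) and 35 lower (0.447%) in Ccr7-detected cells.

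Most of the migratory dendritic genes rose with Ccr7. Of 18 tested, leaving out Ccr7 itself, 12 rose and none fell, with a median of 1.74. Samsn1 had 191, 100.1, 649 and 403 CPM in Ccr7-detected cells and 48.9, 14.8, 133 and 60.9 CPM in Ccr7-zero cells (2.43 ± 0.16, edgeR adjusted p = 5.89e-06). Fscn1, whose product bundles actin in the processes of mature dendritic cells, had 97.8, 100.1, 29.6 and 41.4 CPM in Ccr7-detected cells and 17.5, 36.4, 11.3 and 13.8 CPM in Ccr7-zero cells (1.94 ± 0.25, edgeR adjusted p = 0.00207). The T cell attractants Ccl22, Ccl17 and Ccl5 rose as well, but not evenly. Ccl22 had 161, 236, 146 and 14.5 CPM in Ccr7-detected cells and 14.6, 8.08, 31.7 and 5.53 CPM in Ccr7-zero cells, so the 2-month version 3 library, with 7 and 2 UMIs, stayed low in both.

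Tbc1d4, Tmem123, Serpinb6b, Cd83, Cd274, Il4i1 and Anxa3 were the other migratory genes that rose. Relb, Cd40, Socs2 and Cacnb3, which are on the same list, were above 0 but not called, with log2 fold changes of 0.72 ± 0.19, 0.52 ± 0.34, 1.02 ± 0.36 and 0.41 ± 0.27. The T cell regulators Cd274 and Havcr2 and the costimulation gene Cd83 were the 3 called of 10 costimulation genes. Cd83 had 1005, 443, 820.0 and 641 CPM in Ccr7-detected cells and 697, 237, 585 and 315 CPM in Ccr7-zero cells, higher in 4 of 4 libraries (0.80 ± 0.11, edgeR adjusted p = 0.00327). Of 18 NF-kB genes 7 rose and none fell, and the transcription factors Nr4a3, Irf4 and Bhlhe40 rose.

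The list genes that fell were few. None of 3 monocyte genes was called, and of 7 macrophage genes Trem2 fell and Cd14 rose (0.97 ± 0.16, edgeR adjusted p = 0.00768). Ccr2, the receptor that brings monocytes and their progeny into tissue, had 34.9, 32.2, 35.2 and 35.2 CPM in Ccr7-detected cells and 69.8, 66, 120.1 and 257 CPM in Ccr7-zero cells (-1.63 ± 0.26, edgeR adjusted p = 0.00669). The lysozyme gene Lyz1, Ccl6, the Fc receptor Fcgr3 and the pore-forming protein gene Mpeg1 fell with it. Klf4, a transcription factor of type 2 cells, had 228, 164, 233 and 271 CPM in Ccr7-detected cells and 338, 238, 495 and 520.1 CPM in Ccr7-zero cells (-0.71 ± 0.13, edgeR adjusted p = 0.0125). Mgl2 (-0.17 ± 0.12) and Cd209a (-0.50 ± 0.16) were not called, and nor was any of 12 class II processing genes.

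Besides the migratory genes named, Eno3, Dusp14, Cmtr1, Calcb, Lag3 and Arap2 were among the 12 largest rises. Lag3, an inhibitory receptor that binds class II, had 34.9, 32.2, 29.6 and 20.7 CPM in Ccr7-detected cells and 10.5, 9.43, 7.93 and 11.1 CPM in Ccr7-zero cells. The 12 largest falls also held Gdf15, Lncpint, Sgpp1, Cxcl10, Cysltr1 and Gpm6b. The stress gene Gdf15 had 3, 0, 2 and 4 UMIs in Ccr7-detected cells and 37, 1, 42 and 13 UMIs in Ccr7-zero cells. Acta2 of the mesenchymal genes rose over all cells (0.68 ± 0.14) but was at -0.16 without the cells at 1% mesenchymal UMIs or more (edgeR adjusted p = 0.847). Without those cells 115 of 5476 genes (2.1%) were called, 100 of them among the 153.

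**Figure D4:**
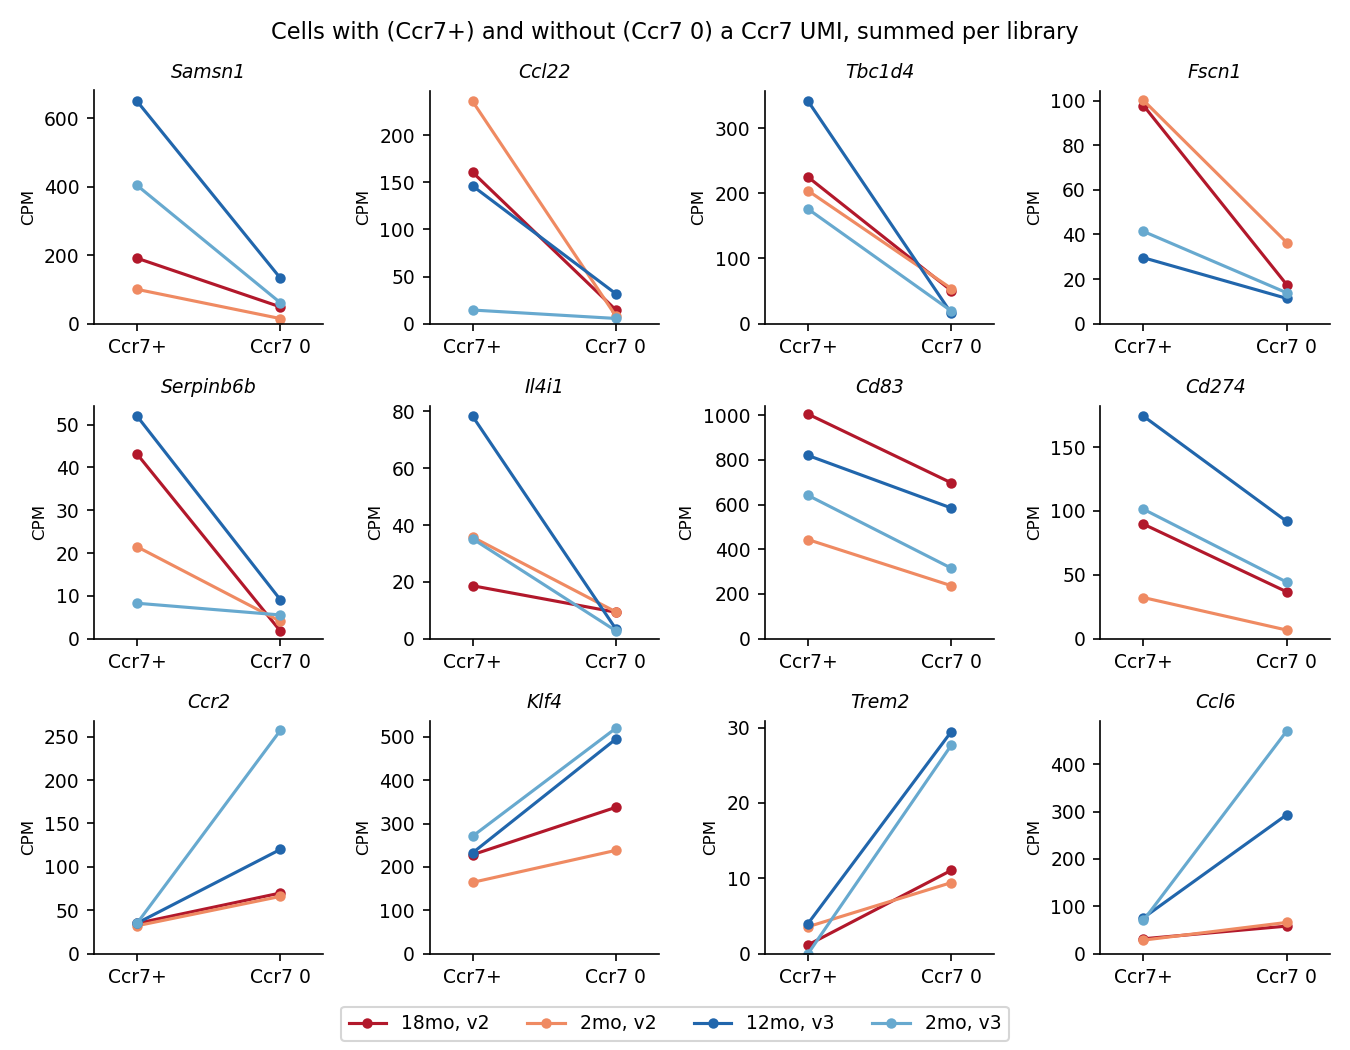
CPM (y axes, each from 0) of 12 genes in Ccr7-detected (Ccr7+) and Ccr7-zero (Ccr7 0) members, summed per library and joined by a line per library. The 8 genes of the upper rows are higher in the Ccr7-detected cells of all 4 libraries, and Ccr2, Klf4, Trem2 and Ccl6 are lower.

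The calls leaned on the 12-month library, which held 102 of the 249 Ccr7-detected cells. Without it 23 genes were higher and 2 lower. Without the 2-month version 2 library, whose Ccr7-detected group was 21 cells, 34 were higher and 8 lower. Removing the 3% of cells with the highest doublet scores gave 62 higher and 17 lower.

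Older and 2-month Cd207-zero cells were compared last, over summed UMIs with chemistry as a covariate. This edgeR fit of 4 libraries has 1 residual degree of freedom, which is how far the 2 chemistry pairs disagree. Its p-values therefore lean on variation pooled over genes. Of 9091 genes 102 (1.12%) were called, 76 higher (0.836%) and 26 lower (0.286%) in the older libraries. The count of calls moved with the settings: with RLE in place of TMM scaling 2 genes were higher and 1 lower, though 1246 genes had an unadjusted p under 0.05 against 1259, and with cells thinned to 3000 UMIs none was called (542 unadjusted). Counting the 12-month library as young, as the design text does, gave 1 higher and 0 lower calls by edgeR (448 unadjusted). Without the cells at 1% mesenchymal UMIs or more, 65 of 6975 genes (0.932%) were called, 29 higher (0.416%) and 36 lower (0.516%), and 48 of the 102 were among them. Ratios within each chemistry are given beside the fit, with exact Poisson intervals for counting error. Over all genes the median log2 CPM ratio was -0.29 for 18 over 2 months and -0.25 for 12 over 2 months, a shift that TMM scaling removes, so fitted increases are larger than the CPM ratios and fitted decreases smaller.

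Several genes of activation rose in the older cells. Tnf had 43.1 CPM at 18 months against 7.83 CPM at 2 months in version 2 and 47.8 CPM at 12 months against 8.28 CPM at 2 months in version 3. It was higher in both pairs, with ratios of 5.50 (2.70 to 13.1) and 5.77 (2.70 to 14.7) and a fitted log2 change of 2.74 ± 0.33 (edgeR adjusted p = 0.0138). The interferon-induced chemokine Cxcl10 had 33.4 CPM at 18 months against 5.87 CPM at 2 months in version 2 and 61.9 CPM at 12 months against 7.10 CPM at 2 months in version 3, with ratios of 5.69 (2.51 to 15.9) and 8.71 (3.90 to 24.2) (3.07 ± 0.35, edgeR adjusted p = 0.0138). Behind these ratios were 6 Cxcl10 UMIs in each 2-month library and 86 at 18 and 132 at 12 months. The nuclear receptor Nr4a3, an early response gene with a role in dendritic cell migration, had 403 CPM at 18 months against 96.8 CPM at 2 months in version 2 and 655 CPM at 12 months against 271 CPM at 2 months in version 3 (1.90 ± 0.23, edgeR adjusted p = 0.0138).

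Of 18 NF-kB genes 4 rose (Nfkbia, Rel, Bcl2a1b and Nfkb1) and none fell, with a list median of 0.91 against 0.00 for all genes. The inhibitor Nfkbia, itself an NF-kB target, had 1869 CPM at 18 months against 1203 CPM at 2 months in version 2 and 1332 CPM at 12 months against 736 CPM at 2 months in version 3 (1.00 ± 0.14, edgeR adjusted p = 0.0238). Of 17 chemokine ligands Ccl7, Cxcl10, Ccl5 and Cxcl16 rose and none fell, and of 14 interferon-stimulated genes Cxcl10, Ifit1 and Isg15 rose. Il1b had 3754 CPM at 18 months against 1425 CPM at 2 months in version 2 and 3861 CPM at 12 months against 2984 CPM at 2 months in version 3 but was not called (1.14 ± 0.23, edgeR adjusted p = 0.0578).

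Some migratory and costimulation genes rose too. Of 19 migratory genes Ccl5, Samsn1, Ccr7 and Cd83 rose and none fell, with a fitted median of 0.92. The pairs were uneven: the list's median log2 CPM ratio was 0.37 for 18 over 2 months and 0.86 for 12 over 2 months. Without the cells at 1% mesenchymal UMIs or more it was 0.095 and 0.95, with 10 and 17 of 18 genes above 0. Ccr7 had 194 CPM at 18 months against 135 CPM at 2 months in version 2 and 991 CPM at 12 months against 446 CPM at 2 months in version 3, ratios of 1.43 (1.19 to 1.75) and 2.22 (1.99 to 2.49) (1.10 ± 0.19, edgeR adjusted p = 0.0366). The share of cells with a Ccr7 UMI was 32.1% (18 months) and 25.0% (2 months) in version 2, and 51.5% (12 months) and 50.8% (2 months) in version 3, at unequal depth. Thinned to 3000 UMIs per cell it was 24.0% (18 months) and 14.6% (2 months) in version 2, and 42.6% (12 months) and 32.4% (2 months) in version 3. Cd83 had 799.9 CPM at 18 months against 293 CPM at 2 months in version 2 and 723 CPM at 12 months against 502 CPM at 2 months in version 3, and Cd86 135 CPM at 18 months against 71.4 CPM at 2 months in version 2 and 302 CPM at 12 months against 182 CPM at 2 months in version 3. These 2 were the costimulation genes called of 11. Without the cells at 1% mesenchymal UMIs or more neither was called (edgeR adjusted p = 0.0887 for Cd83 and 0.125 for Cd86), of the 4 migratory genes Ccr7 and Samsn1 were, of the 4 NF-kB genes Nfkb1 and Bcl2a1b, and of the 4 chemokines Cxcl10, Ccl7 and Cxcl16. Ccl22 had 63.3 CPM at 18 months against 70.4 CPM at 2 months in version 2 and 98.9 CPM at 12 months against 10.7 CPM at 2 months in version 3 and was not called (1.34 ± 0.56, edgeR adjusted p = 0.33).

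Identity genes did not pass the test. None of 11 type 2 and none of 9 general dendritic genes was called, with medians of 0.27 and 0.16, and none of 12 class II processing genes, with a median of 0.49. Cd209a had 565 CPM at 18 months against 552 CPM at 2 months in version 2 and 335 CPM at 12 months against 323 CPM at 2 months in version 3, with ratios of 1.02 (0.928 to 1.13) and 1.04 (0.900 to 1.20). Mgl2 had 777 CPM at 18 months against 767 CPM at 2 months in version 2 and 1618 CPM at 12 months against 1238 CPM at 2 months in version 3 (0.46 ± 0.15, edgeR adjusted p = 0.212). A gene that misses the threshold in this small design is not shown to be equal.

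**Figure D5:**
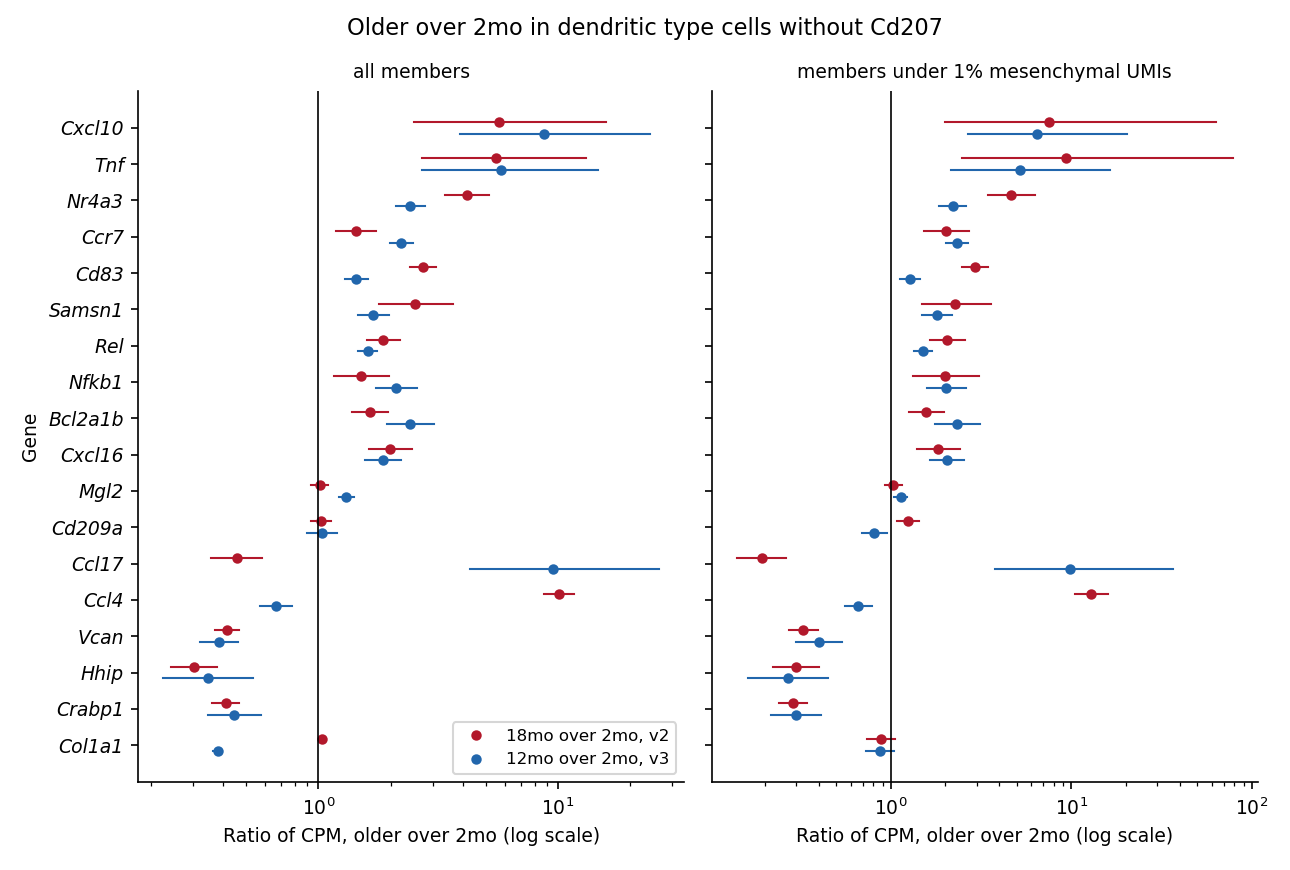
Ratio of CPM in Cd207-zero cells (x axis, log scale; genes on the y axis), 18 over 2 months in version 2 (red) and 12 over 2 months in version 3 (blue), for all members (left) and those under 1% mesenchymal UMIs (right); lines are exact 95% Poisson intervals. Cxcl10, Tnf, Nr4a3, Ccr7, Cd83 and Samsn1 lie right of 1 in both pairs, Vcan, Hhip and Crabp1 left of it, and Ccl17 and Ccl4 on opposite sides in the 2 pairs.

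Among the 10 most strongly higher called genes, Ctla2a, Retnla, Ccl7, Calcb, Timd4, Ccl5, Ifit1 and Fcna joined Cxcl10 and Tnf. Timd4, which binds phosphatidylserine on dying cells, had 16 UMIs at 18 months and 0 at 2 months in version 2. In version 3 it had 606 UMIs at 12 months and 50 at 2 months, a CPM ratio of 4.80 (3.59 to 6.54). Retnla had 4 and 0 UMIs at 18 and 2 months in version 2, and nearly all of its UMIs were from version 3, with 353 at 12 months and 8 at 2 months. The 97 and 36 Ctla2a UMIs of the 18-month and 12-month cells, against 0 in both 2-month libraries, came mostly from cells at 1% mesenchymal UMIs or more, since the others held 10 and 1.

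Genes of the hair follicle mesenchyme were among those that fell. Of 8 tested papilla genes Hhip, Vcan and Crabp1 fell, and of 6 sheath muscle genes Myh11, while none of 9 fibroblast genes was called. Without the cells at 1% mesenchymal UMIs or more, Myh11, Myl9 and Tpm2 fell of 5 sheath muscle genes. The sheath muscle median was then -1.37, against -0.67 over all members, and again none of 9 fibroblast genes was called. Of 4 tested monocyte genes Vcan, which is on that list too, and Plac8 fell and none was above 0, with a median of -1.81. The matrix proteoglycan gene Vcan had 226 CPM at 18 months against 544 CPM at 2 months in version 2 and 111 CPM at 12 months against 288 CPM at 2 months in version 3 (-1.06 ± 0.17, edgeR adjusted p = 0.0311), and without the cells at 1% mesenchymal UMIs or more its change was -1.20 (adjusted p = 0.0489). Col1a1 had 4321 CPM at 18 months against 4160.2 CPM at 2 months in version 2 and 1807 CPM at 12 months against 4752 CPM at 2 months in version 3 and was not called. The share of members at 1% or more was lower in the older library of both pairs, at 27.0% at 18 months against 51.2% at 2 months and 12.6% at 12 months against 27.9% at 2 months. Its part in these falls was not tested.

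Cxcl13, Smpd3, Plac8, C3, Clstn2, Peg3 and Enc1 were further genes that fell. Complement C3 had 3.88 CPM at 18 months against 35.2 CPM at 2 months in version 2 and 3.75 CPM at 12 months against 122 CPM at 2 months in version 3. In version 3 the cells under 1% mesenchymal UMIs held 5 and 2 of the 8 and 103 C3 UMIs at 12 and 2 months. Cxcl13 had 0 UMIs in both older libraries, with 10 and 37 in the 2-month libraries of version 2 and 3, and the 2-month version 3 cells under 1% mesenchymal UMIs held none. The imprinted gene Peg3, known from mesenchyme, had 48, 64, 64 and 150 UMIs.

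Proliferation genes were detected together in a minority of the members. At least 3 of 6 proliferation genes were detected in 7.43% of the 18-month and 11.9% of the 2-month Cd207-zero cells of version 2, and in 4.55% of the 12-month and 11.5% of the 2-month cells of version 3. Mki67 was detected in 12.5, 14.3, 13.6 and 21.3% of Cd207-zero cells and 3.55, 5.24, 5.23 and 3.58% of fibroblast cells. None of 10 cell cycle genes was called with age, and the list median was -0.30.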

How the data were processed

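Single-cell RNA was measured in 4 libraries of sorted back skin dermis. The deposited matrices hold raw UMI counts per gene and cell barcode as the authors' pipeline wrote them; the submitters' processing notes name Cell Ranger 2.0.1, STAR, Seurat 2.1.0 and the build mm10 (GRCm38.p5), with no role or order given. No per-sample column was left without a sample (0 unassigned).

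Kept cells had 500 or more genes detected, 1000 or more UMIs and a mitochondrial share below 10%, and the gates were applied to whole counts. The members and the gene lists were chosen with earlier results of these data known. Counts were summed per library and gate (at least 10 cells each), filtered with filterByExpr, scaled by TMM and tested with edgeR 4.0.16 in R 4.3.3 (quasi-likelihood F-test, two-sided, Benjamini-Hochberg over all genes tested, threshold 0.05). The library was a block between cell types, because both sums come from the same mice, and chemistry was a covariate between ages. Shares carry exact 95% Clopper-Pearson intervals and CPM ratios exact conditional Poisson intervals (scipy 1.17.1), which cover counting error only; a share of 0 allows up to 3 counts of the total. Genes of the rules were left out of naming and of the list counts. Mitochondrial, ribosomal protein and sex-linked genes, Gm and Rik models, the eYFP entry and repeated symbols were left out of naming but not of the fits. The rankings of the largest rises and falls are among the genes that remained.

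Named genes were the 12 called genes per direction (10 for age) with the largest fold, the same sign in every library or pair and at least 50 UMIs (20 for age); list genes were named besides, as examples. A few genes that the rule or the lists name are not reported here. On simulated counts with the real means, 4-fold changes were recovered for 94% of changed genes against Cd207-detected cells, 93% against macrophage type cells, 92% for the Ccr7 split and 92% for age, and 2-fold changes for 44, 41, 51 and 28% in that order. Of the unchanged genes 11, 12, 4 and 6 were called. The counts were drawn from the model that the test fits, with dispersions estimated from these data. The recovery therefore does not cover doublets, mesenchymal RNA or the choice of scaling. Alternatives were RLE factors, DESeq2 1.42.0, no filter, other thresholds, removal of the 3% of cells with the highest Scrublet scores (scanpy 1.11.5), thinning to 3000 UMIs per cell, leaving out each library, and fits without the block or covariate. Doublets were otherwise kept. Depth was 17831300 to 77032628 UMIs per library.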

Additional observations from a re-analysis of the deposited data

Results flagged for a closer look

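For 10 of 405 listed genes the older over 2-month CPM ratio in Cd207-zero cells lay on opposite sides of 1 in the 2 chemistries, with intervals that did not include 1, both over all members and over those under 1% mesenchymal UMIs. The difference between the pairs was not tested, and the pairs differ in the older age, the reporter and the chemistry, which cannot be told apart. The chemokine gene Ccl17 had a ratio of 0.457 for 18 over 2 months and 9.57 for 12 over 2 months. The other 9 genes had ratios above 1 for 18 over 2 months and below 1 for 12 over 2 months. These CPM ratios are not scaled by TMM. Over all 9091 genes the median log2 CPM ratio was -0.29 for 18 over 2 months and -0.25 for 12 over 2 months. Ratios above 1 were found for 29.4% and 32.7% of those genes, so a ratio somewhat below 1 was typical. How many of all genes meet the same criterion was not counted. Ccl4, another chemokine gene, had ratios of 10.1 for 18 over 2 months and 0.664 for 12 over 2 months. The heat shock genes Hspa1a and Hsp90aa1 had 1.22 and 1.11 for 18 over 2 months, and 0.483 and 0.737 for 12 over 2 months. The early response gene Nr4a1 had 1.63 for 18 over 2 months and 0.674 for 12 over 2 months. The lysosomal genes Ctsb and Psap had 1.39 and 1.18 for 18 over 2 months, and 0.821 and 0.777 for 12 over 2 months. The lipid carrier gene Apoe had 1.71 for 18 over 2 months and 0.801 for 12 over 2 months. The keratinocyte genes Krtdap and Lgals7 had 2.70 and 1.87 for 18 over 2 months, and 0.205 and 0.476 for 12 over 2 months.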

How the results depend on the processing

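Counts of calls depended on the settings. Against Cd207-detected cells, the higher and lower calls (19 and 70) became 125 and 227 with no filter and 30 and 41 with thinned cells in 3 libraries, and DESeq2 gave 9 higher; leaving out a library gave 9 to 32 higher and 24 to 96 lower. Against macrophage type cells (821 and 717) leaving out a library gave 250 to 860 higher and 217 to 750 lower. For the Ccr7 split (118 and 35) no filter gave 230 and 149, doublet removal 62 and 17 and DESeq2 20 lower, and leaving out a library gave 23 to 100 higher and 2 to 46 lower. For age (76 and 26) RLE factors gave 2 and 1, no filter 399 and 119, doublet removal 31 and 16, a class II threshold of 5 UMIs 292 and 131, and thinning, like the fit without chemistry, 0 and 0 by edgeR (542 and 190 genes at an unadjusted p under 0.05). Counting 12 months as young gave 1 and 0 (448 unadjusted), DESeq2 11 lower, and leaving out the cells at 1% mesenchymal UMIs or more 29 higher. Of the 102 age calls, RLE shared 3 and DESeq2 71. The share ratio of 18 over 2 months was 3.63 without those cells. Dropping the replicate block (the library, whose sums come from the same mice) gave 1 higher and 5 lower calls against Cd207-detected cells, 150 and 240 against macrophage type cells, and 1 and 0 for Ccr7 (203 unadjusted); these 6, 390 and 1 calls were all among the main ones. For age the chemistry pairs 1 older with 1 2-month library and is a term of the fit. Leaving out a library left no residual degree of freedom for age, so those fits gave folds and no calls. Among the age fits of named genes without an adjusted p, 37 folds moved by more than 1 standard error from the main fit. The cause of these changes was not tested. No gene chosen by the naming rule reversed its direction; Acta2, named besides, was at 0.68 in the Ccr7 split and -0.16 without those cells. The smallest sums were 844943 UMIs of Cd207-zero cells in the 2-month version 3 library and 208799 UMIs of Cd207-detected cells in the 2-month version 2 library.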
